A study of Mus musculus with 6 samples.

Results

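Each of 6 arrays with 2 colours set RNA of Dnmt3a-null (KO) neural stem cells against RNA of wild-type (WT) cells, and the quantity described here is how far the KO effect differed between the 2 culture conditions. For each gene it is the mean log2 KO over WT ratio of the 2 differentiating arrays minus that of the 4 proliferating arrays, the interaction of genotype and condition. All 6 of the 6 arrays entered it, and 17440 genes were tested. WT and KO cells came from lateral ventricle walls (subventricular zones) of mice at postnatal day 14 to 21 and were grown as monolayers with FGF-2 and EGF, each at 10 ng/ml. Proliferating cells were collected in these mitogens. Differentiating cells had been replated with mitogens for 2 days and then kept without them for 3 days. The labels call the arrays biological replicates and do not say whether cultures of the same mice served both conditions. They name no promoter or Cre for the null allele.

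Dnmt3a is one of the enzymes that place new methyl groups on cytosines, mostly in CpG pairs, and in neural stem cells it is known to act both at promoters and over gene bodies and their flanks. Cells of the subventricular zone make neurons of the olfactory bulb, astrocytes and oligodendrocytes. In culture FGF-2 and EGF keep them dividing, and when both are withdrawn they leave the cell cycle and form a mixture of these 3 cell types. A difference of KO effects thus says that WT and KO cells did not change by the same amount when the mitogens were withdrawn.

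A positive value means that KO cells were higher relative to WT cells after withdrawal than before it. Cy5 labelled the KO RNA on differentiating replicate 2 and on proliferating replicates 1 and 3, Cy3 on the other 3 arrays, so each condition held both dye orientations equally. Between 52.0% and 58.8% of the probes were well above background per channel. The standard error of the difference had a median of 0.16 over all genes, and the small number of arrays limits the precision. Both differentiating arrays lay on another slide and scan than the 4 proliferating arrays, so slide and condition cannot be told apart. In such bulk samples fewer cells of a type and less RNA per cell cannot be told apart either. Stem cell markers were well above background in all groups (7 of 7), as were 5 of 5 astrocyte markers, while Stmn2, a neuronal marker, was so in differentiating WT cells and in no other group, and Mog, a myelin marker, was not in any group. Of 12 microglial markers, 4 were above background in each group. The summed signal (log2) of 11 ependymal markers was 11.15 to 12.51 in WT and 11.56 to 12.52 in KO cells before withdrawal, and 11.35 to 11.42 and 12.10 to 12.69 after it. That of 8 choroid plexus markers was 10.18 to 12.04 and 10.68 to 13.14 before and 11.82 to 12.63 and 13.38 to 13.58 after, with Ttr and Kl not above background in any group. That of 12 Schwann and neural crest markers was 12.15 to 12.95 and 13.79 to 15.60 before and 12.90 to 13.14 and 15.15 to 15.36 after, so it was higher in KO cells in both conditions. The part of these markers in the results was not tested. Sex-linked genes had a median log2 KO over WT ratio of 1.09 and 1.59 on proliferating replicates 3 and 4. It was between -0.09 and 0.05 on the other arrays. This median pools Xist and Tsix with genes of the Y chromosome. Xist was well above background on at least 1 proliferating array in each genotype, and on no differentiating array in either. The part of the sex-linked genes in the results was not tested.

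Dnmt3a itself had a negative ratio on every array, with log2 values of -1.11, -0.98, -0.64 and -1.10 on the proliferating and -1.49 and -1.28 on the differentiating arrays. The difference between conditions was -0.43 ± 0.16 (SE) and did not pass the test (limma, adjusted p = 0.381). It was 0.44 and 0.22 at its other 2 probes, so the probes do not share a sign. The sources used here do not state which probes lie in the deleted part.

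The KO effect differed between conditions in 9 genes, 6 of them higher and 3 lower after withdrawal (limma, adjusted p under 0.05). The 9 genes are 0.0516% of those tested, the 6 are 0.0344% and the 3 are 0.0172%. One of the 6, AK038867, has no gene symbol, and the other 8 are described here one by one. AK038867 and Bbox1 were not well above background on any proliferating array, so the filter kept them through the differentiating arrays alone. The 3 lower genes were Bcl11b, which encodes a zinc finger transcription factor of neurons, Gpr149, an orphan G protein-coupled receptor, and Cdk6, a kinase that drives cells into S phase. Those higher were Aqp4, the water channel of astrocytes, Cidea, a lipid droplet protein, Tspan17, a tetraspanin that binds the ADAM10 protease, Rgs16, which shortens G protein signalling, and Bbox1, the last enzyme of carnitine synthesis. At an adjusted p under 0.10 the count was 95 genes (0.545%), 63 higher (0.361%) and 32 lower (0.183%). An unadjusted p under 0.05 was found in 2115 genes (12.1%), 1156 higher (6.63%) and 959 lower (5.50%). When any one of the 6 arrays was left out, proliferating replicate 1, 2, 3 or 4 or differentiating replicate 1 or 2, no gene passed (limma), and 898 to 2510 genes then had an unadjusted p under 0.05. Median centring in place of loess gave no call either (limma, 1528 genes at an unadjusted p under 0.05, 629 higher and 899 lower).

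For Bcl11b the log2 KO over WT ratio was 0.46, 0.14, 0.88 and 0.46 on the proliferating arrays and -2.67 and -2.15 on the differentiating arrays. KO cells thus had more signal than WT cells on all 4 proliferating arrays and less on both differentiating arrays, with no overlap. The difference was -2.89 ± 0.17 (SE; adjusted p = 0.0396), a 7.42-fold lower KO over WT ratio after withdrawal. In WT cells Bcl11b rose by 2.38 (log2, adjusted p = 0.000509) when the mitogens were withdrawn, and in KO cells the value was -0.51 (adjusted p = 0.131). The probe lies on chromosome 12 from 105432172 to 105432231 (build mm7), and a second probe at 105437087 to 105437146 gave a difference of -1.99. With Agilent's processed signals, and with the authors' value table, the Bcl11b difference was -4.81.

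Because Dnmt3a acts on CpG pairs, the 250 bases before the annotated start of 3 of these genes are shown to set a promoter with few CpG pairs beside 1 near the middle and 1 with many. Methylation was not measured in this series. The sequences are those of RefSeq for build GRCm38.p6, 5′ to 3′ on the gene's strand in lower case, with each CG in capitals, and 5 of the 8 named genes matched the promoter table used here. The window of Bbox1 is at chr2:110305726-110305975 (minus strand), Bcl11b at chr12:108003415-108003664 (minus strand) and Cdk6 at chr5:3343643-3343892 (plus strand).
Bbox1: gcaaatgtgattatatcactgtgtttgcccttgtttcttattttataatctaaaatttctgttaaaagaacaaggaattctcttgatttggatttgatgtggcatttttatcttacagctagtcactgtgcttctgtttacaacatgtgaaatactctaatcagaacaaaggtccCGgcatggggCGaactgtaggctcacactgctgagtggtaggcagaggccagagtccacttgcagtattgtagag
Bcl11b: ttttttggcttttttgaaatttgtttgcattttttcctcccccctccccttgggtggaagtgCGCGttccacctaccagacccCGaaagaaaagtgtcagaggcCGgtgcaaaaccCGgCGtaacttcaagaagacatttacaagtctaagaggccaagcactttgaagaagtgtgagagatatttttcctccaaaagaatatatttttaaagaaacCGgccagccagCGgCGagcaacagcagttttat
Cdk6: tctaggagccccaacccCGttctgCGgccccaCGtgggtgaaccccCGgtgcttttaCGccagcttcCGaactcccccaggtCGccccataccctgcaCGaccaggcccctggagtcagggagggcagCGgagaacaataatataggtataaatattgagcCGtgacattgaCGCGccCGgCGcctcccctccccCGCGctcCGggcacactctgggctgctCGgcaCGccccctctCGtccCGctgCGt
CG, which reads the same on both strands, occurs 2 times before Bbox1, 9 times before Bcl11b and 22 times before Cdk6. The same windows of Rgs16 and Tspan17 hold 17 and 22. Over 27025 promoters of this length the median was 6, 80.6% held at least 2, 40.7% at least 9 and 14.6% at least 22. Bbox1 thus lay below the median of 6, and Bcl11b, Rgs16, Tspan17 and Cdk6 lay above it. No count was available for Aqp4, Cidea, Gpr149 or AK038867. A count of these letters says nothing of their methylation.

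Gpr149 had log2 KO over WT ratios near 0 on the proliferating arrays, 0.03, 0.05, 0.16 and 0.24, and of -2.52 and -2.14 on the differentiating arrays. All 4 proliferating arrays lay within 0.24 of equal signal and both differentiating arrays far below it. The difference was -2.45 ± 0.15 (SE; adjusted p = 0.0396). Gpr149 rose by 2.64 (log2, adjusted p = 0.000599) in WT cells on withdrawal. Before withdrawal it was well above background on 1 of 4 arrays in WT and 2 of 4 in KO cells. In differentiating KO cells its signal was not well above background on either array, so KO cells were at least 5.04-fold lower there. Its probe lies on chromosome 3 from 62675081 to 62675140 (build mm7). A second probe, at 62748478 to 62748537, gave a difference of -0.48. The Gpr149 difference was -4.77 with Agilent's processed signals and -1.47 with the mean over its probes.

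Cdk6 was the one gene of the 8 whose KO effect passed the test before withdrawal and not after it. Its log2 ratio was 2.24, 1.53, 2.14 and 1.28 on the proliferating arrays, where KO cells were higher (adjusted p = 0.0111), and -0.42 and 0.58 on the differentiating arrays, which fell on both sides of 0. The difference was -1.72 ± 0.13 (SE; adjusted p = 0.0444). On withdrawal Cdk6 fell by 2.45 (log2, adjusted p = 0.000902) in KO cells and gave -0.74 (adjusted p = 0.0529) in WT cells. The mean ratio after withdrawal was 0.08 ± 0.70 (SD, n = 2; adjusted p = 0.792). The call rests on 1 probe, on chromosome 5 from 3535293 to 3535352 (build mm7), since its other 2 probes, above background on 2 and 0 of the 6 arrays, gave -0.28 and -0.42, and with the mean over its probes the difference was -0.998.

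**Figure D1:**
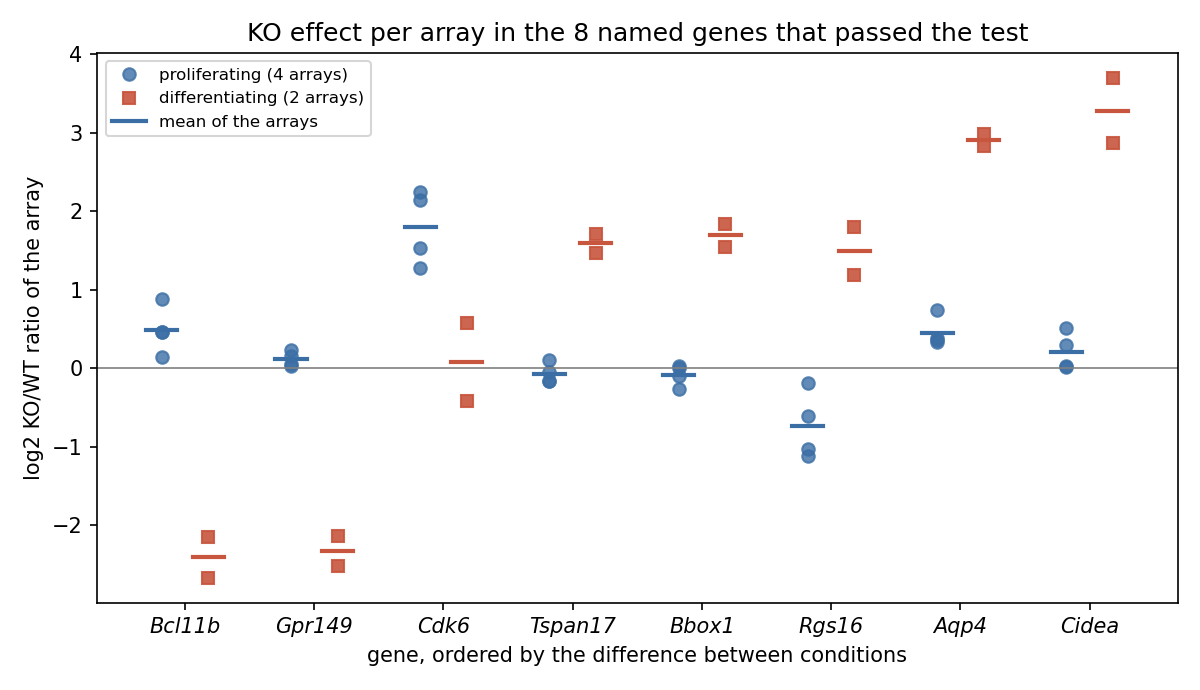
The y axis gives the log2 KO over WT ratio of each array for the 8 named genes that passed, as circles for the 4 proliferating and squares for the 2 differentiating arrays, with horizontal lines at the means. The circles and squares of a gene do not overlap in any of the 8, which were picked for this difference. Of all genes, 3205 of 17429 (18.4%) had no such overlap. Only Cdk6 has its proliferating arrays farther from 0 than its differentiating arrays.

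The 5 named genes with a higher KO effect after withdrawal had mean ratios between -0.74 (Rgs16) and 0.45 (Aqp4) in proliferating cells. Aqp4, which lies in the endfeet of astrocytes, had log2 KO over WT ratios of 0.36, 0.74, 0.38 and 0.33 on the proliferating arrays and 2.84 and 2.99 on the differentiating arrays. It was positive on all 6 arrays and larger on the last 2 by 2.46 ± 0.16 (SE; adjusted p = 0.0396). On withdrawal it rose by 3.47 (log2, adjusted p = 0.00462) in KO cells and gave 1.01 (adjusted p = 0.214) in WT cells. Its other 2 probes gave differences of 1.84 and 1.87.

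Cidea, a protein best known from the fat droplets of brown adipocytes, had the difference of largest size among the 9. Its ratios were 0.29, 0.51, 0.03 and 0.01 on the proliferating and 3.70 and 2.87 on the differentiating arrays. The difference was 3.07 ± 0.24 (SE; adjusted p = 0.0444), an 8.41-fold higher ratio. On withdrawal its value was 0.02 (log2, adjusted p = 0.987) in WT cells, and it rose by 3.09 (adjusted p = 0.00592) in KO cells. Each genotype was well above background on 3 of the 4 proliferating arrays.

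Tspan17 had ratios of -0.16, 0.11, -0.17 and -0.05 on the proliferating and 1.71 and 1.47 on the differentiating arrays. The difference was 1.66 ± 0.11 (SE; adjusted p = 0.0396). Neither genotype alone passed on withdrawal, with 0.04 (log2) in WT cells and 1.71 (adjusted p = 0.0780) in KO cells. Its probe lies on chromosome 13 from 53878505 to 53878564 (build mm7).

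Rgs16 was the only one of the 8 whose KO effect passed in both conditions, in opposite directions. Its ratios were -0.61, -1.04, -0.20 and -1.12 on the proliferating arrays, where it was lower in KO cells (adjusted p = 0.0335), and 1.18 and 1.79 on the differentiating arrays, where it was higher (adjusted p = 0.0140). The difference was 2.23 ± 0.15 (SE; adjusted p = 0.0396). Withdrawal lowered Rgs16 in WT cells, where it fell by 1.88 (log2, adjusted p = 0.00872), and gave 0.35 (adjusted p = 0.508) in KO cells. Its probe lies on chromosome 1 from 153706094 to 153706153 (build mm7).

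Bbox1 had ratios of 0.02, 0.00, -0.10 and -0.27 on the proliferating arrays, where neither genotype was well above background, and 1.55 and 1.84 on the differentiating arrays. The difference was 1.78 ± 0.14 (SE; adjusted p = 0.0444), and it was 2.94 with Agilent's processed signals. The proliferating ratios are those of 2 dim signals, so neither the size of this difference nor that of a response to withdrawal is measured on both sides. Its probe lies on chromosome 2 from 110116220 to 110116279 (build mm7). AK038867 had a difference of 1.36 and was above background only in differentiating KO cells.

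**Figure D2:**
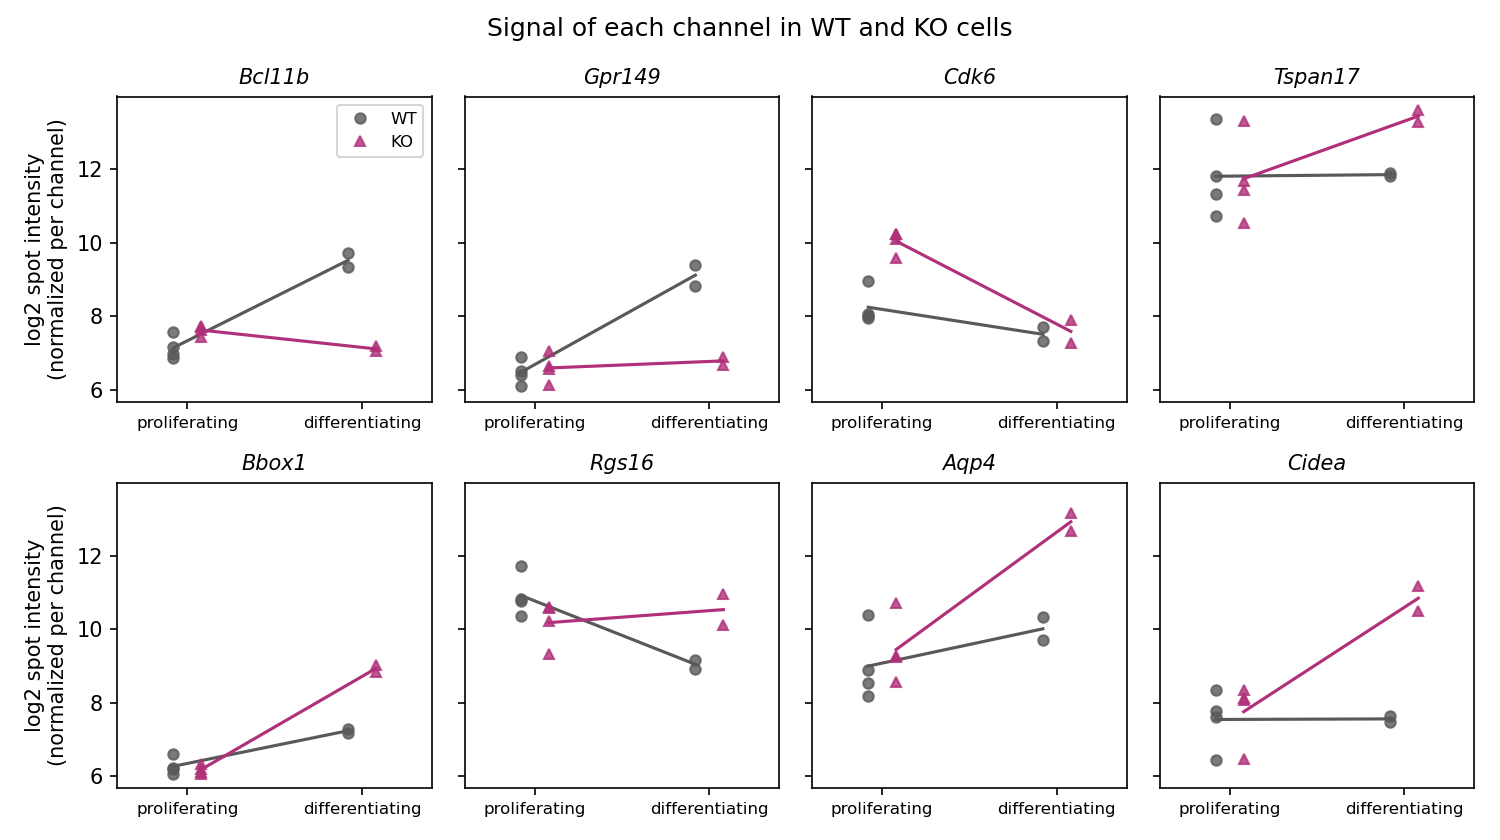
Each panel gives the log2 intensity of 1 gene per channel (circles WT, triangles KO; 4 proliferating and 2 differentiating arrays), with lines between the group means. The mean climbs in WT cells for Bcl11b (2.38) and Gpr149 (2.64), climbs most in KO cells for Aqp4 (3.47) and Cidea (3.09), drops in WT cells for Rgs16 (-1.88) and drops most in KO cells for Cdk6 (-2.45). Levels of different genes come from different probes and are not compared.

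Over the array as a whole, many genes passed the test of withdrawal in both genotypes. In WT cells 2652 genes passed (limma's separate-channel fit, 15.2% of 17429), 1627 rising (9.34%) and 1025 falling (5.88%). In KO cells 2691 passed (15.4%), 1635 rising (9.38%) and 1056 falling (6.06%). Without 1 array these counts ranged from 206 (without differentiating replicate 1) to 3729 (without proliferating replicate 4) in WT, and from 293 to 4618 in KO cells for the same arrays. They were 675, 668 and 987 in WT and 428, 623 and 955 in KO cells without proliferating replicate 1, 2 or 3, and 855 and 315 without differentiating replicate 2.

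Among the 63 genes whose KO effect was higher after withdrawal at an adjusted p under 0.10, WT cells had 8 that rose and 16 that fell, and KO cells had 38 that rose and 14 that fell. The median withdrawal response of these genes was 0.175 (log2) in WT and 1.54 in KO cells. The 32 genes with a lower KO effect were the reverse in WT cells, where 25 rose and 0 fell, against 4 and 3 in KO cells. Their medians were 1.54 in WT and 0.121 in KO cells. Since these genes were picked for the difference between the 2 responses, the counts describe which genotype moved and carry no test of their own.

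**Figure D3:**
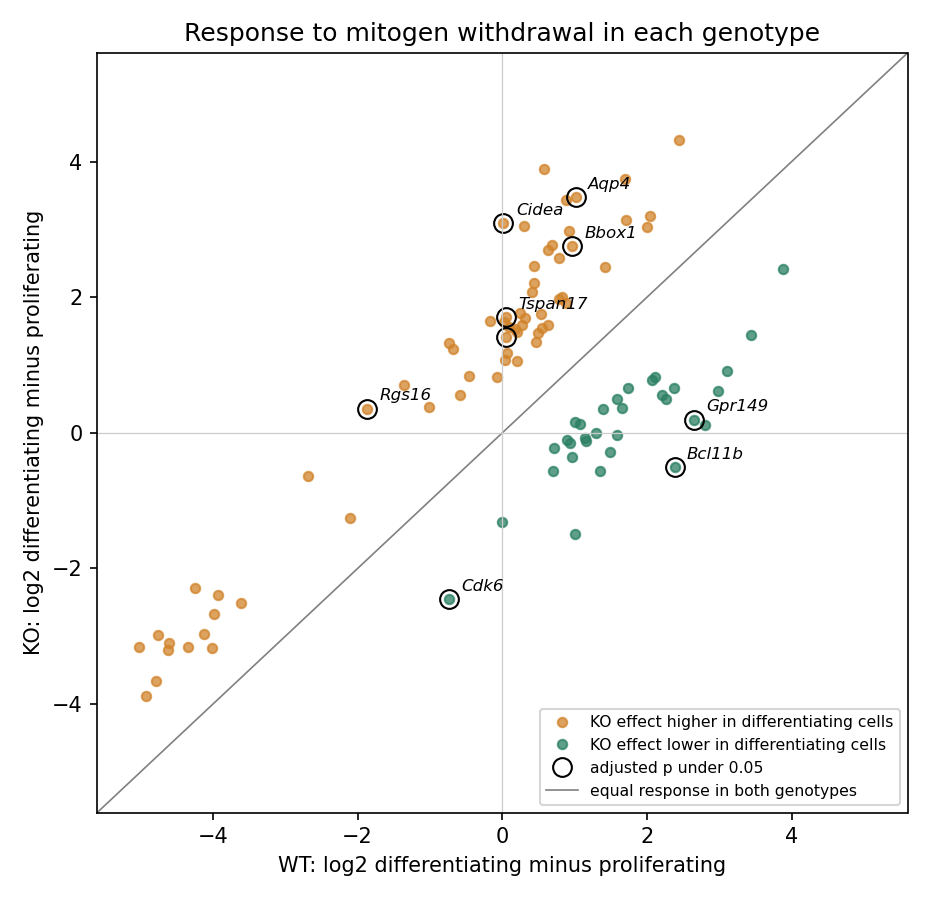
The axes give the response to withdrawal (log2, differentiating minus proliferating) in WT (x) and KO cells (y) for the 95 genes at an adjusted p under 0.10, with open circles around the 9 at 0.05 and a line of equal response. Green points, with a lower KO effect after withdrawal, lie mostly at positive WT and near-zero KO values, and orange points form a group above 0 in KO cells and a group that falls less in KO than in WT cells at the lower left.

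The KO effect within a condition passed in 170 genes in proliferating cells (limma, 0.975%), 110 higher (0.631%) and 60 lower (0.344%). In differentiating cells it passed in 547 (3.14%), 386 higher (2.21%) and 161 lower (0.923%), and 83 genes passed in both. Of the 464 that passed in differentiating cells only, 7 passed the test of the difference, as did 0.0516% of all genes. A larger effect of the same sign in differentiating cells was found in 386 of them. Of the 87 that passed in proliferating cells only, 1 passed the test of the difference. A call in 1 condition alone was thus seldom matched by a call of the difference at an adjusted p under 0.05. At 0.10 the difference passed in 86 of the 464 and 4 of the 87 (0.545% of all genes). Its unadjusted p was under 0.05 in 426 and 57 (12.1% of all genes). These counts rest on the same arrays as the first calls and carry no test of their own. Both differentiating arrays lay outside the range of the 4 proliferating arrays in 3205 of 17429 genes (18.4%), above it in 1670 (9.58%) and below it in 1535 (8.81%).

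Behind the 9 genes came 30, 15 on each side, that did not pass (adjusted p from 0.0506 upward), and those described are given as values. Slc41a3, a magnesium transporter, had a difference of 1.77 ± 0.14 (SE), with all 4 proliferating arrays negative (-1.15 to -0.66) and both differentiating arrays positive (0.91 and 0.84). Osmr, a receptor subunit for oncostatin M, was at 2.07 ± 0.18. Id3, an inhibitor of basic helix-loop-helix factors, was at 2.04 ± 0.18. Ass1, of arginine synthesis, was at 2.08 ± 0.22. Others were Gpr179 (2.05), Mal (1.82), Mobp (2.56), Cnp (1.66), Cdc20 (1.96), Rasgrp1 (1.61), Plxnb3 (1.53), Hkdc1 (1.39), Sgk2 (1.36) and Wnt9a (1.11). In Sgk2, Mal and Mobp, WT signal was well above background on at most 1 of the 4 proliferating arrays. For Mobp it was so on none, and KO cells were at least 1.39-fold higher there, which did not pass (limma, adjusted p = 0.237). For Hkdc1 it was so on neither differentiating array, and KO cells were at least 2.07-fold higher there.

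Of the 15 on the lower side, Syt1, the calcium sensor of synaptic vesicles, had ratios of -0.13, -0.51, 0.04 and 0.05 on the proliferating and -2.87 and -2.13 on the differentiating arrays, a difference of -2.37 ± 0.22 (SE). Kit, the receptor of stem cell factor, had -2.79 and -2.54 on the differentiating arrays and a difference of -2.69 ± 0.31. Both rose in WT cells on withdrawal, Syt1 by 2.98 (log2, adjusted p = 0.000930) and Kit by 2.80 (adjusted p = 0.00400), with 0.61 and 0.11 in KO cells. Nxph1, a ligand of neurexins, was at -2.49 ± 0.24. Myt1l, a zinc finger factor of neurons, was at -1.61 ± 0.13, with WT signal not above background in proliferating cells. KO cells were at least 1.27-fold higher there, which did not pass (limma, adjusted p = 0.120). Cbln1, a synapse organizer, had positive ratios on all 4 proliferating arrays and negative ones on both others, with a difference of -1.77. Others were Chst1 (-1.47), Khdrbs2 (-1.28), Adamts5 (-1.28), Gldc (-1.09), Rhox2a (-1.09), Srrm3 (-1.08), Cracdl (-1.0), Cnih2 (-0.94) and Cntn2 (-0.94). No proliferating array had WT signal well above background for Chst1, Khdrbs2 or Srrm3, and none had such KO signal for Rhox2a. There KO cells were at least 1.31-fold higher for Chst1 and 1.16-fold for Khdrbs2, and neither effect passed (limma, adjusted p = 0.131 and 0.337). Ratios lay on both sides of 0 for Srrm3 (-0.13 to 0.14) and Rhox2a (-0.22 to 0.11), so no fold is given for them. Cntn2 was above background in differentiating WT cells alone, where KO cells were at least 1.90-fold lower.

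The genes were also read in 32 lists of named pathways and cell types, in which the counts and medians are descriptions beside those of all genes (8511 positive and 8929 negative differences, median -0.01). Of the lists, 6 held a gene that passed, with Aqp4 counted in the astrocyte and in the water channel list. The lists were chosen with earlier results of these data known, so this count carries no test. Members said to rise or fall on withdrawal passed at an adjusted p under 0.05 (limma's separate-channel fit). Of all genes 9.34% rose and 5.88% fell in WT cells, and 9.38% rose and 6.06% fell in KO cells. At an unadjusted p under 0.05 the difference was higher in 6.63% and lower in 5.50% of all genes. At an adjusted p under 0.10 these shares were 0.361% and 0.183%. The KO effect itself passed as higher in 0.631% of all genes in proliferating and in 2.21% in differentiating cells. Medians above 0.3 were found in 8 lists and below -0.3 in 4. Over 13 alternatives the median ranged from 0.76 to 1.69 for mitosis, 0.58 to 1.43 for myelin, 0.23 to 0.72 for astrocyte, 0.11 to 0.41 for DNA replication, 0.11 to 0.66 for lipid droplet and 0.10 to 0.67 for interferon genes. It ranged from -1.31 to -0.47 for neuronal RNA-binding proteins, -0.80 to -0.42 for neuronal cytoskeleton, -0.73 to -0.27 for lipid synthesis and -0.90 to -0.02 for germline genes. The sign turned in 10 of the 13 for DNA methylation genes and in 6 each for Wnt and hedgehog genes. It turned in 5 each for the RGS, IGF and insulin, and cholinergic lists. For stem and radial glia genes it turned in 4, and for axon guidance genes in 3. The oligodendrocyte lineage, immediate early, Notch and extracellular matrix lists had 2 each, and imprinted genes 1.

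Mitosis genes had the highest median of the 32 lists, 0.90 (log2), with a positive difference in 24 of 25 measured members. None passed at an adjusted p of 0.05, 8 did at 0.10 (all positive), and 19 had an unadjusted p under 0.05. Cdc20, which activates the ubiquitin ligase of anaphase, had ratios of 0.55, -0.27, 0.25 and 0.37 on the proliferating and 2.15 and 2.23 on the differentiating arrays. Its difference was 1.96 ± 0.22 (SE; adjusted p = 0.0892). Aurka, a spindle kinase, was at 1.11 ± 0.13 (adjusted p = 0.0892). In differentiating cells alone 20 of the 25 were higher in KO cells and passed (2.21% of all genes), against 0 in proliferating cells (0.631% of all genes). On withdrawal 24 fell in WT and 25 in KO cells, with medians of -3.91 and -2.75, so these genes fell in both genotypes, and the median was less negative in KO cells.

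Of 24 DNA replication genes, 18 had a positive difference (median 0.32), and none passed, 8 having an unadjusted p under 0.05 (12.1% of all genes). On withdrawal 14 of them fell in WT cells (median -1.95) and 7 in KO cells (median -1.68). Mcm6, a subunit of the replicative helicase, was at 1.34 ± 0.25 (SE; adjusted p = 0.156). Uhrf1, which guides maintenance methylation after replication, was at 1.01 ± 0.22 (adjusted p = 0.180). Of 17 cyclin-dependent kinase inhibitors and growth arrest genes, 13 were positive too (median 0.43), with lowest p in Gadd45b at 2.14 ± 0.35 (adjusted p = 0.130) and Cdkn2c at 0.56.

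Myelin genes had a positive difference in 17 of 18 measured members (median 0.59), with no call at 0.05, 3 at 0.10 and 10 at an unadjusted p under 0.05. Their median KO over WT ratio (log2) was 0.59 in proliferating and 1.96 in differentiating cells, and it was 1.86 and 1.87 on the 2 differentiating arrays. In differentiating cells 7 of the 18 passed as higher in KO cells (2.21% of all genes). Mobp, a protein of compact myelin, had 3.11 and 3.02 there against 0.11 to 1.28 before withdrawal, and WT signal was not well above background in proliferating cells. Cnp, an enzyme of non-compact myelin, had a difference of 1.66 ± 0.18 (SE; adjusted p = 0.0889), and Tspan2, a tetraspanin of oligodendrocytes, of 2.17 ± 0.34 (adjusted p = 0.118). On withdrawal 7 myelin genes rose in KO cells and 1 in WT cells. The summed signal of 7 oligodendrocyte markers was 14.24 to 14.36 (log2) in WT and 14.42 to 15.90 in KO cells before withdrawal. It was 14.27 to 14.75 in differentiating WT and 16.74 to 16.88 in differentiating KO cells. Of the 6 markers measured, 4 had a positive and 2 a negative difference. Of 17 lineage factors and precursor genes, 9 were positive and 8 negative (median 0.20). Gpr17, a receptor of late precursors, was higher in proliferating KO cells (adjusted p = 0.0130) and had a difference of -1.47 ± 0.29 (adjusted p = 0.159), with ratios of 1.94 to 2.76 before and 0.66 to 1.1 after withdrawal. Enpp6, an early marker of new oligodendrocytes, was at 1.13 (adjusted p = 0.166). Its WT signal was not above background before withdrawal (KO at least 1.44-fold higher), and the effect there did not pass (limma, adjusted p = 0.154).

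Astrocyte genes were positive in 18 of 26 (median 0.51), and 1, Aqp4, passed. Sparcl1, a secreted protein related to SPARC that was singled out after its values were seen, had the lowest difference of all genes tested, -3.63 ± 1.38 (SE; adjusted p = 0.387). Its ratios were 2.38, 2.53, 6.89 and 5.16 on the proliferating and 0.71 and 0.52 on the differentiating arrays, so all 6 were positive and the groups did not overlap. On withdrawal 9 of the 26 astrocyte genes rose in KO cells and 5 in WT cells. Among 14 water channels and ion pumps of glia 9 were positive (median 0.32). BMP signals favour astrocytes in this lineage, and of 19 BMP ligands, receptors and targets 13 were positive (median 0.21). Id3, which BMP signals induce, had ratios of 0.14, 1.34, 0.44 and 0.88 before and 3.08 and 2.40 after withdrawal (adjusted p of the difference = 0.0568), and in WT cells it fell by 2.68 on withdrawal (adjusted p = 0.00170). Id1 was at 2.21 ± 0.53 (adjusted p = 0.207), with -0.75 on proliferating replicate 1 and 0.95 to 2.03 on the other 3.

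Lists of neuronal genes lay on the other side of 0. Neuronal RNA-binding proteins were negative in 11 of 13 (median -0.88), cytoskeleton and growth cone genes in 12 of 18 (median -0.63), synaptic genes in 19 of 24 (median -0.25) and proneural and neuronal transcription factors in 11 of 16 (median -0.17). No member of the 4 lists passed at 0.05. At an unadjusted p under 0.05 they held 9, 11, 9 and 6 negative members, and 0, 0, 1 and 2 positive ones. Of all genes 5.50% were negative and 6.63% positive at that cutoff. Tubb3, the tubulin of young neurons, had ratios of -0.20, -0.69, 0.00 and -0.23 on the proliferating and -1.68 and -1.44 on the differentiating arrays. Its difference was -1.28 ± 0.17 (SE; adjusted p = 0.0941). It rose by 2.10 (log2, adjusted p = 0.00976) in WT cells on withdrawal and gave 0.82 (adjusted p = 0.179) in KO cells.

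Rbfox3, the antigen of the NeuN antibody, was at -0.88 ± 0.16 (SE; adjusted p = 0.156), and Slc32a1, the vesicular transporter of GABA, at -1.58 ± 0.26 (adjusted p = 0.134). Gap43, a growth cone protein, was higher in proliferating KO cells (0.94 to 2.20, adjusted p = 0.0341) and had ratios of -0.05 and -0.34 after withdrawal (adjusted p of the difference = 0.151). Neurod2, a neuronal transcription factor, was at -0.52 ± 0.11. Of 10 transcription factors of olfactory interneurons 6 were negative (median -0.23), with lowest p in Etv1 at -1.41 and Dlx5 at -0.34, the latter not above background before withdrawal. On withdrawal 7 of 18 cytoskeleton, 6 of 24 synaptic and 5 of 13 RNA-binding genes rose in WT cells. In KO cells 2, 2 and 3 of them rose. These counts are at an adjusted p under 0.05 (limma's separate-channel fit), where 9.34% of all genes rose in WT and 9.38% in KO cells. The summed signal of 7 neuronal markers was 13.04 to 13.50 (log2) in WT and 13.01 to 13.38 in KO cells before withdrawal. It was 14.55 to 14.70 in differentiating WT and 13.45 to 13.68 in differentiating KO cells.

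**Figure D4:**
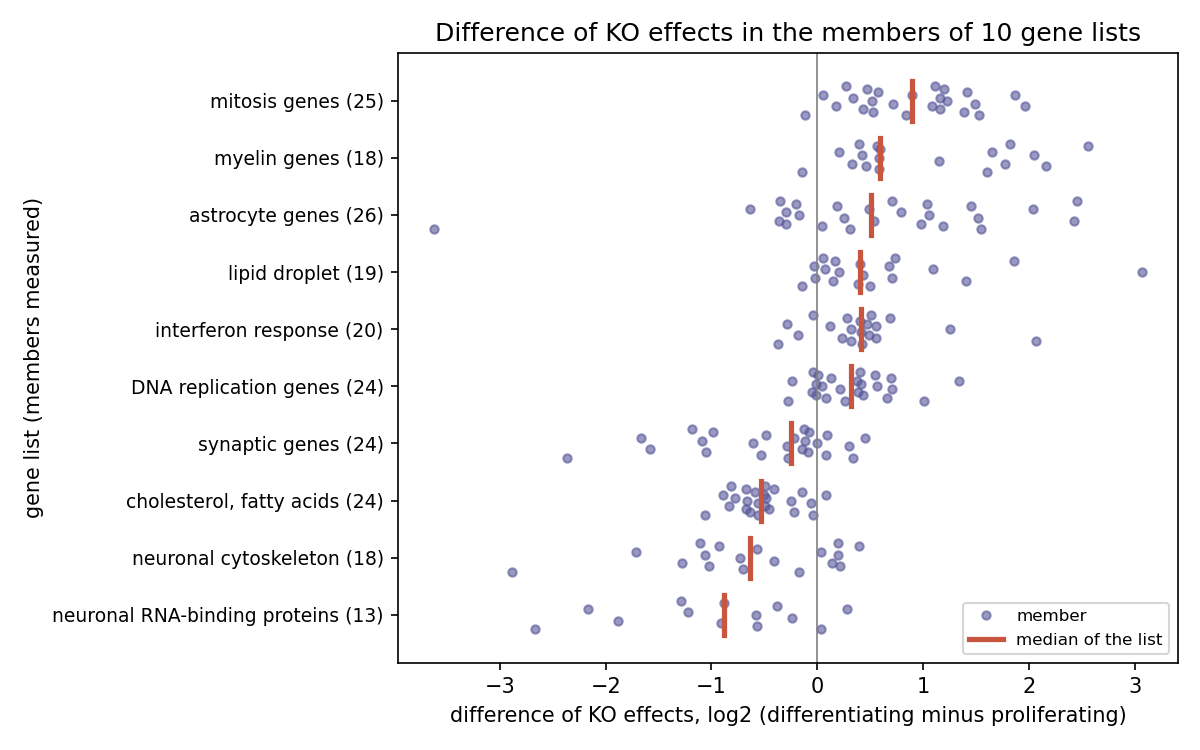
Each point is the difference of KO effects (log2, differentiating minus proliferating) of 1 measured member of 10 gene lists, and vertical bars mark the medians. Mitosis (0.90) and myelin (0.59) members lie mostly right of 0, and neuronal RNA-binding proteins (-0.88), neuronal cytoskeleton (-0.63) and lipid synthesis genes (-0.53) mostly left of it.

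Of 19 lipid droplet and triglyceride genes 16 were positive (median 0.41) and Cidea passed. On withdrawal 10 of them rose in KO cells and 0 in WT cells (limma's separate-channel fit). Lpl, the lipase that frees fatty acids from lipoproteins, had ratios of 0.02 to 1.00 before and 2.91 and 1.74 after withdrawal, a difference of 1.86 ± 0.37 (SE; adjusted p = 0.159). Of 24 genes of cholesterol and fatty acid synthesis 23 were negative (median -0.53), with no call and 6 at an unadjusted p under 0.05 (12.1% of all genes). Dhcr7, the last enzyme of the cholesterol pathway, was at -1.06 ± 0.24 (adjusted p = 0.194), and Elovl6, a fatty acid elongase, at -0.67 ± 0.20 (adjusted p = 0.285). This list differed between the 2 differentiating arrays. Its median ratio was -0.05 on replicate 1 and -0.82 on replicate 2, and relative to the proliferating mean 7 of the 24 were positive on replicate 1 and 0 on replicate 2.

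Interferon response and antigen presentation genes were positive in 16 of 20 (median 0.41), none passing. Gbp2, a guanylate-binding protein, was negative on all 4 proliferating arrays (-0.80 to -0.23) and positive on both others (1.86 and 1.12), with a difference of 2.07 ± 0.27 (SE; adjusted p = 0.0956), and Gbp3 was at 1.26 ± 0.29. Of 15 RGS regulators of G protein signalling 7 were positive (median -0.07). Rgs16 passed, and Rgs9 was at 0.83 (adjusted p = 0.103). Of 21 tetraspanins 15 were positive (median 0.20).

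FGF and EGF act through the ERK cascade, which induces its own inhibitors. Of 19 ERK feedback and response genes 17 had a negative difference, of small size (median -0.17). Of the 19, 2 had an unadjusted p under 0.05, as did 12.1% of all genes. Immediate early genes divided evenly (10 of 19 positive, median 0.00), with Jun at -0.93 and Klf4 at 0.72. Of 21 stem and radial glia genes 11 were positive (median 0.13). Cdk6 passed, and Nes, the intermediate filament of neural stem cells, was at -0.83 ± 0.14 (SE; adjusted p = 0.140), and it fell by 2.17 on withdrawal in WT (adjusted p = 0.00566) and fell by 3.00 in KO cells (adjusted p = 0.00177), where 1 proliferating spot was saturated. Myc was at -0.86 and Bmi1, a Polycomb gene that keeps stem cells dividing, at -0.64.

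Signalling lists had medians near 0, and none of their members passed: Notch (8 of 19 positive, median -0.02), Wnt (10 of 19, 0.00), hedgehog (7 of 13, 0.01) and the IGF and insulin axis (6 of 12, -0.02). Their single members could still be far from 0. Dhh, a hedgehog ligand, had ratios of 3.03, 4.26, 4.78 and 2.49 in proliferating cells, where it was higher in KO cells (adjusted p = 0.0278), and of 0.82 and 0.58 in differentiating cells. Its difference of -2.94 ± 0.67 (SE) did not pass with this error (adjusted p = 0.194). Nrarp, a feedback target of Notch, was at -1.21 ± 0.22, Hes1 at -0.47, Sfrp1, a Wnt antagonist, at -1.44 ± 0.32, and Wnt7b at 0.70. Hhip was at 0.53, with WT not above background after withdrawal (KO at least 1.63-fold higher). Igfbp2 was at -0.49, with 1 proliferating spot saturated in each genotype, and Igf2 at 0.36.

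Chromatin lists and imprinted genes gave no call. Of 19 DNA methylation genes 10 were positive (median 0.01), of 22 Polycomb and H3K27 demethylase genes 7 (median -0.14, with Cbx2 at -0.28), of 22 imprinted genes 10 (median -0.11, with Grb10 at -1.10) and of 9 measured germline genes 3 (median -0.40). Rhox2a and Tdrd1, germline genes whose promoters are known targets of methylation, were at -1.09 (adjusted p = 0.0892) and -0.40 (adjusted p = 0.255). Extracellular matrix genes (10 of 22 positive), axon guidance genes (12 of 23) and cholinergic, monoamine and peptide genes (5 of 11) had medians between -0.03 and 0.01. Their members of lowest p, which are not those of largest size, included Lama4 at -1.47, Plxna2 at -1.68, Epha3 at -0.64 (not above background before withdrawal), Chrm1 at -0.75 and Pdyn at 0.65. Lama4, a laminin chain, was higher in proliferating KO cells (adjusted p = 0.0438). In differentiating WT cells Lama4 was not above background (KO at least 1.22-fold higher), and its KO effect there did not pass (limma, adjusted p = 0.742). Tdrd1 was not above background in differentiating cells of either genotype. Of other lists, Bcan was at 0.67, with 1 saturated differentiating KO spot, and Rasgrf1 at 0.82. WT signal of Rasgrf1 was not above background after withdrawal (KO at least 1.78-fold higher), and the effect there did not pass (limma, adjusted p = 0.0779).

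In 583 genes (3.34%) all 4 proliferating arrays had one sign and both differentiating arrays the other, and in 28 of them (0.161%) the mean was at least 0.5 in size in each condition. Among the 26 of these with a gene symbol the 8 with the lowest p included Rgs16, Slc41a3, Gpr179, Cbln1, Gbp2, Igsf3 and 1700086L19Rik. Gpr179, an orphan receptor, was lower in proliferating KO cells (-1.74 to -0.66, adjusted p = 0.0196) and had 0.64 and 0.87 after withdrawal (adjusted p = 0.0843). Igsf3, an immunoglobulin superfamily protein, had -1.37 to -0.49 before and 0.30 and 0.74 after. The transcript 1700086L19Rik went the other way, from 0.34 to 1.15 down to -1.21 and -1.01.

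At the other end were genes with nearly equal mean KO effects in both conditions. Among genes called in either condition the 5 with the smallest difference were Inha, Ptpn14, Pde1b, Acot11 and Ccdc184. Acot11, an acyl-CoA thioesterase, had mean ratios of 1.53 and 1.54 in proliferating and differentiating cells, and Pde1b, a phosphodiesterase, of -1.07 and -1.06. Ptpn14, a tyrosine phosphatase, had 0.64 and 0.65, Inha, an inhibin subunit, -0.50 and -0.48, and Ccdc184 1.1 and 1.1. The 95% interval of the difference was -0.25 to 0.28 for Ptpn14 and -0.78 to 0.79 for Acot11, so for the latter differences of up to that size remain possible. With Agilent's processed signals, and with the authors' value table, the Ptpn14 difference was 0.88, outside this interval.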

How the data were processed

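Scanner intensity values and log10 ratios were deposited for 6 Agilent arrays with 2 colours (Feature Extraction 9.5.1.1, per the file headers). Their log10 ratios, with every array set as KO over WT, made up the authors' value table. Of 45018 spots 1639 were controls. Intensities were corrected with normexp (offset 50) and normalised within arrays by loess in limma 3.58.1 (R 4.3.3, statmod 1.5.0), repeat spots were averaged, and each of 27670 gene names took its brightest probe. Genes were kept where a channel was well above background on at least 2 arrays (17440). Probes were named through RefSeq by accession (22972), symbol (6644) or synonym (3105), and 8453 kept the name in the files.

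The model (lmFit, eBayes) had 1 coefficient per condition and a dye term, with 3 residual degrees of freedom. Tests were 2-sided with Benjamini-Hochberg adjustment over all genes, and a call needed an adjusted p under 0.05. P-values measure only the spread between these arrays. Withdrawal responses came from a separate-channel fit (lmscFit after Aquantile, intraspot correlation 0.763) and rest on intensities compared between slides. Where no array of a group measured a gene well above background, its fitted difference rests on a dim signal. If the other genotype was above background there, their ratio is given as at least the brighter group's mean over the dimmer group's mean of the higher of its own signal and the array's lowest signal well above background. No such value is given where the ratios of a condition's arrays lay on both sides of 0. Both fits were tested on simulated data.

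Named genes were all those that passed, the next 15 on each side, the 2 of lowest p in each of 32 lists, 8 of opposite sign in the conditions with means of at least 0.5, the 5 called genes with a difference nearest 0, and Dnmt3a. The members and lists were chosen with earlier results of these data known. Genes without a symbol were counted and not described, and a few genes the rule picks are not reported here. Alternatives covered background correction, normalisation, filter, probe rule, dye term, weights, replicate block and each array left out.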

Additional observations from a re-analysis of the deposited data

Results flagged for a closer look

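The KO effect differed between proliferating and differentiating cells by the test of the difference itself (limma, adjusted p under 0.05) in 9 genes. The differences (log2, differentiating minus proliferating) were -2.89 for Bcl11b, -2.45 for Gpr149 and -1.72 for Cdk6, and 2.46 for Aqp4, 1.66 for Tspan17, 2.23 for Rgs16, 1.36 for AK038867, 1.78 for Bbox1 and 3.07 for Cidea. AK038867 and Bbox1 were not well above background in proliferating cells of either genotype.

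Among the 4 proliferating arrays, 1 stood apart from the others in 2 of the 93 named genes whose 4 values were examined (2.15%), where chance gives about 1 in 20. Aqp4 had a log2 KO over WT ratio of 0.74 on proliferating replicate 2 and 0.33 to 0.38 on the other 3. Bmi1 had -0.64 on proliferating replicate 4 and -0.12 to -0.06 on the other 3.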

How the results depend on the processing

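The count of 9 genes moved under every alternative tried. It was 95 at an adjusted p under 0.10, 71 with Agilent's processed signals, 77 with the authors' value table, 16 with a normexp offset of 10, 39 with ratios scaled to equal spread, 22 without the dye term, 193 with array quality weights, 44 with an intensity trend and robust spread and 396 in the separate-channel fit. It was 4 with genes well above background on all 6 arrays and 5 with the mean over a gene's probes. It was 0 (limma) with median centring (1528 genes at an unadjusted p under 0.05), with no filter on dim probes (2778), without proliferating replicates 3 and 4 together (2060) and without any one array (0 to 0; 898 to 2510). With the replicate block and no dye term it was 0 (1022), and with a crossed replicate block, chosen after seeing the data, 0 (2060). Replicate numbers are shared by 2 pairs of arrays, whose deviations correlated at -0.367 and -0.287, and the labels do not tie them. Of the 9 genes, 9 remained with processed signals, the authors' table, scaling, weights and the trend, 8 with an offset of 10 and in separate channels, and 7 without the dye term. The cause of these shifts was not tested. Among genes at an unadjusted p under 0.05, 54.7% were higher, and 41.2% with median centring.

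The 8 named genes that passed kept their sign under all alternatives run, and their differences ranged from -4.81 to -2.44 (Bcl11b), -4.77 to -1.47 (Gpr149), -1.99 to -0.998 (Cdk6), 2.06 to 2.69 (Aqp4), 2.71 to 3.82 (Cidea), 1.60 to 1.75 (Tspan17), 2.12 to 2.41 (Rgs16) and 1.68 to 2.94 (Bbox1). The sign turned in the 5 genes with a difference near 0 and, with the mean over probes, in Dnmt3a. Acot11 was at -0.37 with processed signals and with the authors' table, -0.14 with an offset of 10, -0.088 with median centring, -0.17 with the replicate block and without proliferating replicates 3 and 4. Ccdc184 was at -0.11 with median centring, -0.021 with weights, and -0.044 with the block and without those 2 arrays. Pde1b was at -0.056 with median centring, -0.11 with scaling and -0.045 with weights, Ptpn14 at -0.058 with median centring and -0.12 with the mean over probes, Inha at -0.025 with scaling, and Dnmt3a at 0.076 with the mean over probes. Without 1 array the ranges were -0.44 to 0.44 (Acot11), -0.18 to 0.19 (Ccdc184), -0.23 to 0.25 (Pde1b), -0.028 to 0.056 (Ptpn14) and -0.065 to 0.11 (Inha).

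The withdrawal counts, for which all alternatives were added after seeing the data, were 1006 in WT and 1268 in KO cells without proliferating replicates 3 and 4, and 206 to 3729 and 293 to 4618 without 1 array. Slide as a random block was not run, since it could not be fitted with each condition on its own slide. Dim signals limit Gpr149 in differentiating KO and Bbox1 in proliferating cells, and the other genes said to be not above background in a group.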
